A study of Mus musculus with 12 samples.

Results

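DNA methylation of CD138-positive B cells that had divided at least 8 times in vivo (Div8pos) was compared with that of B cells that had divided 5 times (Div5). The comparison used 4 of the 12 libraries of the series, 2 of Div8pos and 2 of Div5, and every one of the 760348 CpGs that had at least 10 reads in all 12 libraries. The series design gives the donor cells as splenic B cells, positive for B220 and negative for CD43, from naive C57/BL6J mice. They carried CFSE or CTV, dyes that each division dilutes. The cells were transferred into uMT mice, a strain that makes no mature B cells of its own. The hosts were then given lipopolysaccharide (LPS), a bacterial product that makes B cells divide and form antibody-secreting cells. Div8pos and Div5 cells were both sorted from the spleen on day 3, so both had been through transfer and LPS, and both came from the same 2 hosts, numbered 196 and 197. The labels give all libraries as female, 8 weeks old and of strain B6.SJL-Ptprca Pepcb/BoyJ. They do not say whether that strain is the donor's or the host's, and it is not the donor strain named in the design. Each library is 1 fraction of 1 host, and the sources do not say whether donor cells had been pooled.

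CD138 is the product of Sdc1, a heparan sulfate proteoglycan on the surface of plasmablasts and plasma cells. Plasmablasts are the dividing precursors of plasma cells, and their formation needs the transcription factors Irf4 and Prdm1 (also called Blimp-1). In mammals cytosines of CpG pairs are methylated across most of the genome and are mostly unmethylated at CpG-rich promoters. The mark is copied after each replication by Dnmt1 and can be lost when it is not copied or when Tet enzymes oxidise it. Reduced representation bisulfite sequencing reads restriction fragments rich in CpGs, so distal and CpG-poor sequence is covered thinly. A level is the percentage of reads at a CpG that were methylated, and a difference is given in percentage points, as Div8pos minus Div5. A level between 0 and 100% in a sorted fraction is an average over cells and over both alleles. The fractions differ in both division number and CD138. The effects of 3 or more further divisions and of CD138 status therefore cannot be told apart in this comparison. Cells that also had at least 8 divisions but no CD138 (Div8neg) are given where they bear on a value. Div8neg and Div8pos need not have divided equally often.

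The median coverage per CpG was 30 reads in host 196 and 55 in host 197 at Div8pos, against 23 and 57 reads at Div5. The lower depth of host 196 makes its single-CpG levels less precise. Amplification was by PCR and no molecular identifiers are named, so reads are not independent molecules and counting error understates the error of a level. Sdc1 and Prdm1 are the markers of the sorted population, but methylation of a gene is not its expression and does not test the label. The p-values rest on these 2 animals and do not reach to others. For single CpGs they use a common value of the spread, estimated across all CpGs and over all 12 libraries. They therefore do not measure the host spread of that CpG.

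Methylation was lower in Div8pos than in Div5 in both hosts. The mean level over all CpGs was 50.2% in host 196 and 49.6% in host 197 at Div8pos, against 55.4% and 55.0% at Div5. Every Div8pos library was below every Div5 library. Within hosts the difference was -5.23 and -5.41 points (mean -5.32, SD 0.131, n = 2 hosts). An exact permutation test of the 4 libraries (two-sided) gave p = 0.3333, the smallest that 6 arrangements allow, so the difference is read against the spread between hosts. The level at Div8neg lay between, at 53.2% ± 0.0442 (SD, n = 2), and Div8pos minus Div8neg was -3.25 points (SD 0.378) within hosts. By comparison, Div5 differed from undivided cells (Div0) by -0.790 points (SD 0.0763).

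**Figure D1:**
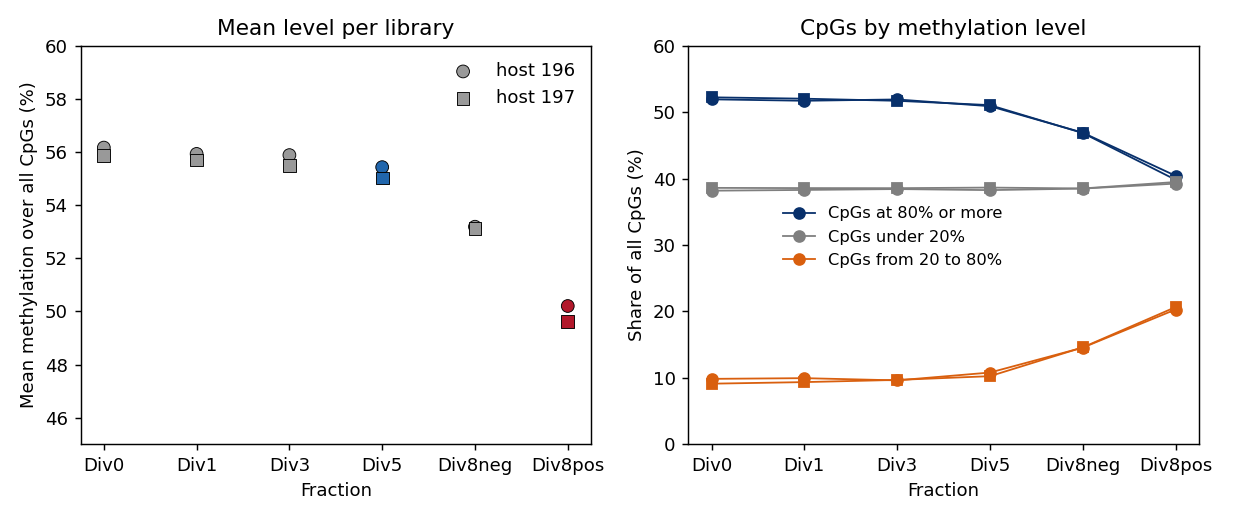
The left panel shows the mean methylation (%) over 760348 CpGs of each library by fraction, with circles for host 196, squares for host 197, red for Div8pos and blue for Div5 (the axis starts at 45%). The right panel shows the share of CpGs (%) at 80% or more, under 20%, and between, per library. Both Div8pos libraries lie near 50% and both Div5 libraries near 55%.

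The loss was mostly partial. CpGs with a level of at least 80% made up 40.4% of all CpGs in host 196 and 39.8% in host 197 at Div8pos, against 50.9% and 51.1% at Div5. CpGs between 20 and 80% made up 20.3% and 20.7% at Div8pos, against 10.8% and 10.3% at Div5. The share under 20% was 39.3% and 39.5% at Div8pos, against 38.3% and 38.7% at Div5. In both hosts the top range held fewer CpGs and the middle range more in Div8pos, and the bottom range differed less.

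A CpG was called lower or higher where its test over all CpGs gave an adjusted p under 0.05 (quasi-binomial model, Benjamini-Hochberg adjustment) and the levels differed by at least 20 points. By this rule 34215 CpGs, 4.5% of those tested, were lower in Div8pos than in Div5, and 66, or 0.00868%, were higher. The lower CpGs had a median difference of -26.1 points, with quartiles at -31.8 and -22.7 and the largest at -92.6. Of them, 99.9% moved the same way in both hosts and 76.0% had been at 80% or more in Div5. In Div8pos 93.7% of the lower CpGs lay between 20 and 80% and 6.30% (2156 CpGs) under 20%. They were spread over 10411 gene symbols. Their median level was 91.1% in undivided cells, then 90.5%, 89.8% and 90.5% after 1, 3 and 5 divisions, and 79.4% in Div8neg and 62.2% in Div8pos. The median thus stayed near 90% through 5 divisions, and the fractions with at least 8 divisions held the low values. The rule selected on Div8pos and Div5, so those 2 medians and the shared direction in both hosts are a description.

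The count was lower without the libraries of host 197, which were sequenced more deeply. Without the Div5 library of host 197 the lower CpGs numbered 6618 and without its Div8pos library 17567, and with the dispersion of each CpG taken from that CpG alone no CpG passed in either direction although 107179 had an unadjusted p under 0.05. CpGs chosen in 1 host were followed in the other, which had no part in the choice. The 1862 CpGs chosen as lower in host 196 by Fisher's exact test had a median difference of -40.3 points in host 197, where 99.6% were lower in Div8pos and 84.2% by at least 20 points, against 6.76% of all CpGs. The 24335 CpGs chosen in host 197 had a median difference of -19.6 points in host 196, where 93.1% were lower and 48.7% by at least 20 points, against 8.60% of all CpGs.

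The same was asked of the gain. Only 2 CpGs were chosen as higher in host 196, and neither was higher in host 197. Of 44 chosen as higher in host 197, 25 were higher in host 196 and 1 by at least 20 points. The 66 higher CpGs of the pooled test had a median level of 27.8% in undivided cells, then 25.8%, 27.3% and 13.2% after 1, 3 and 5 divisions, and 31.2% in Div8neg and 41.1% in Div8pos. Their Div5 level was below that of every other fraction. The rule selected these CpGs as low in Div5 and high in Div8pos, so those 2 medians are a description. They included CpGs at the promoter of the transcription factor Foxa2, which stood at 62.5% and 41.9% in Div8pos, against 22.2% and 26.1% in Div5, and in an intron of the neuropeptide gene Npy, at 55.6% and 35.4% in Div8pos, against 19.4% and 17.0% in Div5. Foxa2 and Npy were picked from these 66 after their values were seen. Without single libraries the higher CpGs numbered 8 (without Div5 of host 197), 100 (without Div5 of host 196) and 105 (without Div8pos of host 197).

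Loss depended on the level before division. CpGs under 5% at Div0 differed by -0.0561 points between Div8pos and Div5, and those from 5 to 20% by -0.788. The difference was -4.44 points for CpGs from 20 to 40%, -8.26 from 40 to 60%, -12.2 from 60 to 80%, -10.7 from 80 to 95% and -7.13 from 95 to 100%. In the 60 to 80% class 15.5% of the CpGs with at least 20% at Div5 were lower in Div8pos, against 3.98% in the 95 to 100% class. The SD of the difference between the 2 hosts was at most 0.286 points in these classes.

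Among CpGs of at least 80% at Div0, all annotation classes of the files lost methylation, and exons lost least. The difference was -9.37 points at promoters (from 2500 bp before to 500 bp after a start site), -9.07 in introns, -8.35 between genes, -8.29 in 3′ UTRs, -7.55 in 5′ UTRs and -6.57 in exons. In host 196 introns changed by -8.89 and exons by -6.39 points, and in host 197 introns by -9.25 and exons by -6.75. Counted among CpGs of at least 20% at Div5, 9.03% of promoter CpGs, 8.45% of intron CpGs, 7.25% of intergenic CpGs, 6.98% of 3′ UTR CpGs, 4.64% of 5′ UTR CpGs and 3.79% of exon CpGs were lower, against 7.33% of all. The intron share was 2.23 times the exon share. Promoters were mostly unmethylated to begin with, so that only 22644 of 132376 promoter CpGs could be counted here.

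By distance from the nearest start site, the difference was -9.67 points from 2500 to 1000 bp upstream and -7.47 from the start site to 500 bp downstream (CpGs of at least 80% at Div0), and -7.66 for CpGs farther than 50 kb. The flanks of start sites therefore showed the larger differences of this set and the first 500 bp of transcripts the smallest. By chromosome, again among CpGs of at least 80% at Div0, the autosomes ranged from -8.14 (chromosome 8) to -9.25 points (chromosome 11). The X chromosome differed by -6.53 points, and 3.64% of its CpGs were lower, against between 6.19% and 8.12% on single autosomes.

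**Figure D2:**
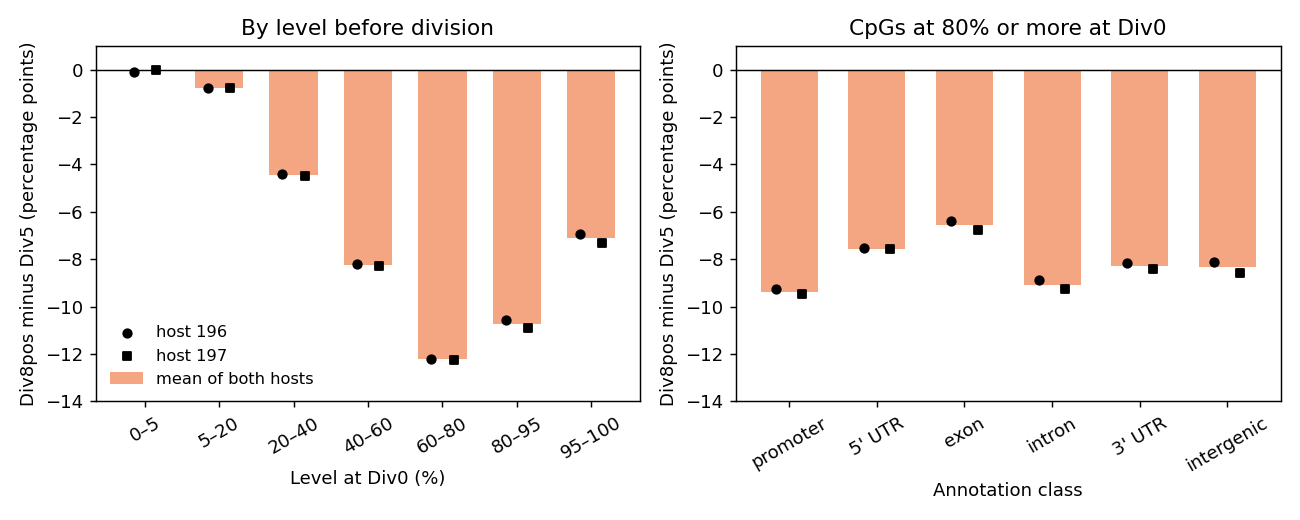
Bars show the mean difference Div8pos minus Div5 in percentage points, with a circle for host 196 and a square for host 197. The left panel groups all CpGs by their level at Div0 and the right panel groups CpGs of at least 80% at Div0 by annotation class. The largest loss, -12.2 points, is at CpGs of 60 to 80% at Div0, and exons show the smallest of the 6 classes at -6.57.

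Promoters close to the start site show what these losses look like on the sequence. Of 32 genes with at least 2 lower CpGs between 250 bp before and 50 bp after the start site, 5 could be matched to a RefSeq promoter (GRCm38.p6) in which each of at least 3 covered CpGs fell on a CG, placed by its distance from the start site. The 3 matched promoters that come first when ordered by the number of lower CpGs and then by the difference are shown here. Each is given 5′ to 3′ on the strand of the gene, and capitals mark the CG of the CpGs lower in Div8pos. The Ccl22 window is chr8:94745434-94745733 (plus strand), that of Ckm chr7:19410844-19411143 (plus strand) and that of Ccdc27 chr4:154042628-154042927 (minus strand).
Ccl22: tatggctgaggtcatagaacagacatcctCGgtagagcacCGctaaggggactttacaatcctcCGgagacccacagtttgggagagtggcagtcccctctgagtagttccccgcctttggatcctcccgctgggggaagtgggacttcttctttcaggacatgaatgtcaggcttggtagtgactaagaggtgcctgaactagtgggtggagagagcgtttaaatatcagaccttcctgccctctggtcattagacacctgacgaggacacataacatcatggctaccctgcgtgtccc
Ckm: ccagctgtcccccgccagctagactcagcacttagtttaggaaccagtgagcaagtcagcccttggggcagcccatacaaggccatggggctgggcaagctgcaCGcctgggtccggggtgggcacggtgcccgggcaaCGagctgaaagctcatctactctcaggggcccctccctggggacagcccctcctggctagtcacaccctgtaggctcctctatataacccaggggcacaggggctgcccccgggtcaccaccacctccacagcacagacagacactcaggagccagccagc
Ccdc27: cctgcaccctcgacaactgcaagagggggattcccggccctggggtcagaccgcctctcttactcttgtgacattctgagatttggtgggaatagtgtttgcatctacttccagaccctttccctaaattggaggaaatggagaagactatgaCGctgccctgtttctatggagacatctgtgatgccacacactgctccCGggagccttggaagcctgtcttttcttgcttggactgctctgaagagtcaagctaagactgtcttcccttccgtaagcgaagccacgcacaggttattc
These windows hold 8, 7 and 8 CG pairs in that order, against a median of 7 over the 32851 promoters of the RefSeq table.

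Ccl22 encodes a chemokine that attracts T cells through the receptor Ccr4, and all 3 of its covered CpGs were lower. At -220 from the start site the levels were 20.9% (43 reads) and 29.5% (78 reads) in Div8pos, against 46.7% (30 reads) and 55.1% (69 reads) in Div5. At -209 they were 37.2% and 39.7% in Div8pos, against 73.3% and 75.4% in Div5. At -185 they were 62.5% and 71.7% in Div8pos, against 81.0% and 95.7% in Div5. No Div8pos library reached the lowest Div5 library at any of the 3. Ckm encodes muscle creatine kinase. Its CpG at -145 had 43.6% and 41.7% in Div8pos, against 69.7% and 71.0% in Div5, and that at -110 had 16.7% and 3.77% in Div8pos, against 33.3% and 28.1% in Div5. The remaining covered CpG, at -237, differed by -18.9 points and missed the size limit. In the Ccdc27 promoter the CpG at -95 had 41.5% and 53.8% in Div8pos, against 82.5% and 75.8% in Div5, and that at -48 had 67.4% and 74.2%, against 96.6% and 89.5% in Div5. Its other covered CpGs, at -197 and -214, differed by -11.0 and -13.7 points and did not pass. The covered CpGs of 1 promoter can lie on the same reads and are not independent.

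Prdm1 (chromosome 10) carried the region with the largest difference among the 1132 regions that were lower in Div8pos. A region here is a run of at least 3 lower CpGs at most 500 bp apart. This one holds 6 CpGs between positions 44120496 and 44120755 (mm9) in intergenic sequence, and the files assign it in part to Prdm1 and in part to its neighbour Atg5. Its mean level was 5.03% in host 196 and 3.55% in host 197 at Div8pos, against 91.7% and 91.6% at Div5, a difference of -87.4 points with a median coverage of 71 reads. In Div8neg it was 56.8% and at Div0 94.4%. The region was therefore near fully methylated through 5 divisions, near fully unmethylated in Div8pos, and in the middle in Div8neg. At its CpG at 44120739 the levels were 2.94% and 2.70% in Div8pos, against 100% and 90.6% in Div5 (adjusted p = 1.26e-44 by the quasi-binomial model).

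A second Prdm1 region of 5 CpGs, at 44449594 to 44449754 at -201286 bp from the nearest start site, had 37.5% and 36.9% in Div8pos, against 97.7% and 97.0% in Div5, and 86.8% in Div8neg. The third region, with 3 CpGs at 44176517 to 44176649 in an exon and 5′ UTR, had 44.2% and 50.4% in Div8pos, against 80.7% and 79.2% in Div5. A region of 5 CpGs that the files assign to Atg5, an autophagy gene, lies at 44086818 to 44087015 and had 19.2% and 21.8% in Div8pos, against 98.1% and 95.7% in Div5. Over the 74 CpGs assigned to Prdm1 within 50 kb of a start site, which leave out the region at -201286 bp, the mean was 48.5% and 46.8% in Div8pos, against 63.0% and 61.4% in Div5. The gene-level difference was -14.5 points (SE 0.843, adjusted p = 7.04e-06 by limma over 16505 genes). Of the 74 CpGs 11 were lower, against 4.5% of all CpGs. The 74 include CpGs of the first region, such as that at 44120739, which lies 41256 bp from the nearest start site. That distance is counted from a start site on the Atg5 side, not from that of Prdm1. Within 5 kb of a start site the gene-level difference was -7.25 points, inside the 10-point limit for genes. The 21 CpGs of Prdm1 that were under 20% in Div5 stood at 4.55% and 3.40% in Div8pos, against 5.28% and 4.33% in Div5.

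Sdc1 (chromosome 12), whose product was the sort marker, had no lower CpG among its 43, against 4.5% of all CpGs. Its 21 CpGs under 20% in Div5 could not have fallen by 20 points. Its mean level was 42.5% and 42.1% in Div8pos, against 47.1% and 46.5% in Div5. The difference of -4.52 points (SE 0.683, limma adjusted p = 0.000333) passed the test without reaching the 10-point limit for genes, and it is close to the median of all genes, -4.59. Grouped by their level in Div5, its 21 CpGs under 20% in Div5 averaged 2.25% and 2.32% in Div8pos, against 3.17% and 2.43% in Div5. Its 4 CpGs from 20 to 80% differed by -8.70 points. Its 18 CpGs of at least 80% averaged 85.0% and 84.5% in Div8pos, against 93.5% and 92.6% in Div5.

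Irf4 (chromosome 13), which acts with Prdm1 in plasma cell formation, lost methylation upstream of its start site. All 5 CpGs of Irf4 that had at least 20% in Div5 were lower, and all 5 lie in its annotated promoter, while its other 18 CpGs were under 20% in both fractions. The region of 4 CpGs at 30838716 to 30838863, from -2410 to -2263 bp of the start site, had 38.4% and 42.9% in Div8pos, against 86.4% and 90.5% in Div5. A single CpG at -1379 had 2.94% and 1.75% in Div8pos, against 44.4% and 48.1% in Div5. The gene-level difference was -12.4 points (SE 0.970, limma adjusted p = 1.55e-05), and Div8pos minus Div8neg was -10.4 points (SE 0.970, adjusted p = 0.000236).

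Il10 (chromosome 1) encodes an anti-inflammatory cytokine that some plasma cells secrete. It had 9 lower CpGs of 23, against 4.5% of all CpGs. Its region of 5 CpGs at 132900127 to 132900154, at -16267 bp from the start site, had 36.9% and 34.1% in Div8pos, against 83.5% and 84.1% in Div5. A lone CpG at 132907490 had 0% of reads methylated in host 196 and 10.5% in host 197 in Div8pos, against 76.2% and 90.0% in Div5. The gene-level difference was -19.7 points (SE 1.39, limma adjusted p = 1.14e-05).

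**Figure D3:**
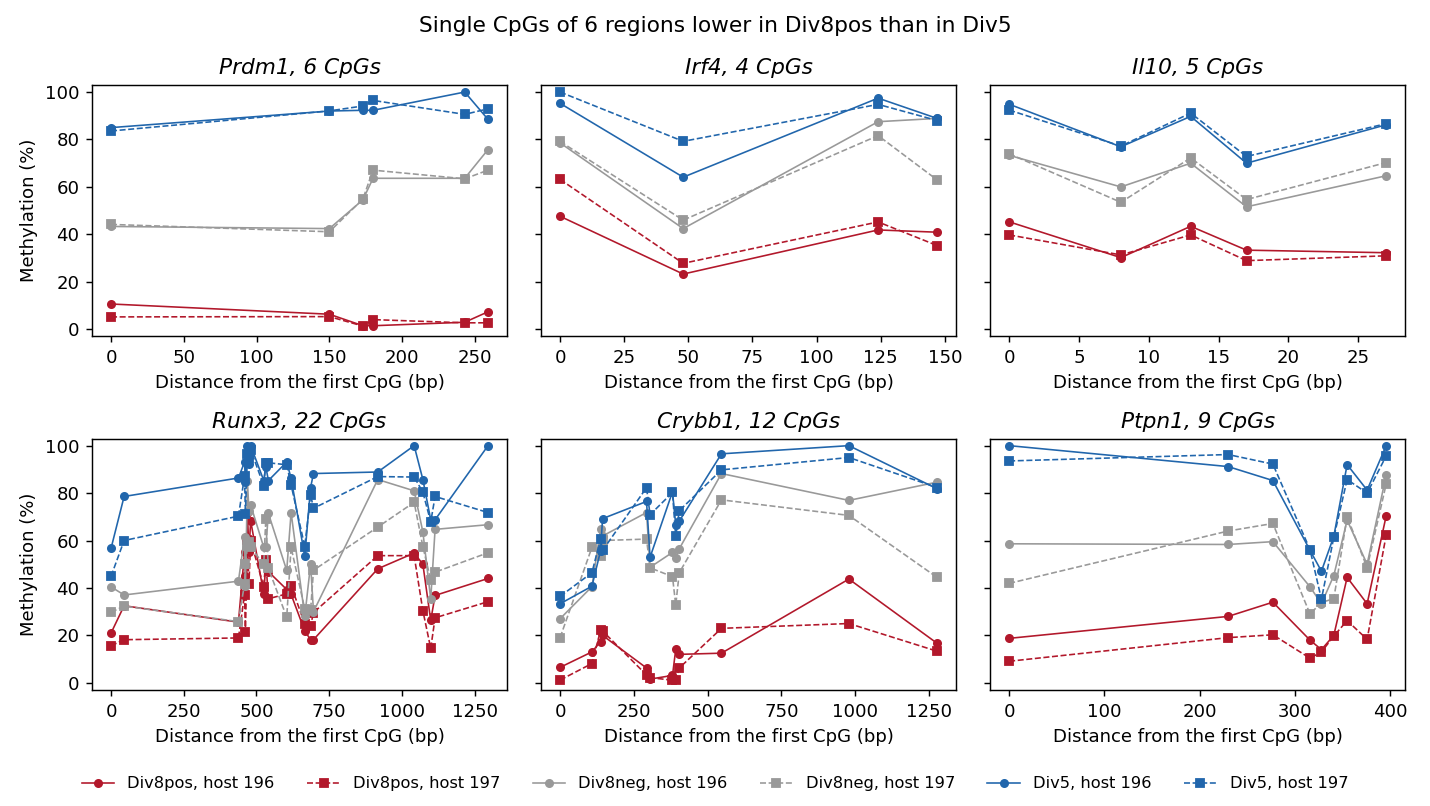
Each panel shows the methylation (%) of the single CpGs of 1 region against the distance in bp from the region's first CpG. Red is Div8pos, grey Div8neg and blue Div5, with circles and full lines for host 196 and squares and broken lines for host 197. The Prdm1 region shows Div8pos near 0, Div5 near 90% and Div8neg between them.

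Of the 34215 lower CpGs only 12.5% (4271) lay in the 1132 lower regions, whose median length was 166 bp and median difference -30.8 points. All 1132 moved the same way in both hosts, which the choice of lower CpGs makes likely. In 29 the hosts differed by over 20 points, and 149 had a mean under 20% in Div8pos. The count was 310 without the Div5 library of host 197 and 589 without its Div8pos library.

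The regions with the most CpGs were assigned to genes of several roles, though not all of them lie within the gene. Runx3, a transcription factor of lymphocytes, had 22 lower CpGs of 22 covered at 134710809 to 134712105 on chromosome 4 (exon and intron), with a mean of 41.1% and 35.1% in Div8pos, against 84.9% and 79.5% in Div5. Zfp710, a zinc finger protein, had 17 of 17, with 50.0% and 43.9% in Div8pos, against 80.7% and 76.1% in Div5. Crybb1, a lens crystallin, had 12 of 12 and the lowest level of these regions, 13.9% and 10.7% in Div8pos, against 68.5% and 69.5% in Div5. Arhgef11, a guanine nucleotide exchange factor, had 12 of 12 in intergenic sequence, at -17313 bp from the nearest start site. That region had 27.0% and 23.1% in Div8pos, against 71.1% and 65.0% in Div5, but Div8neg was already at 29.2% there. Cnp, Gapdhs, Mfhas1 and Rps14 (intergenic) made up the 8 regions with the most lower CpGs, with 12 to 14 each and differences from -26.6 to -16.5 points. In all 8 the Div8pos libraries lay below both Div5 libraries, which the choice of lower CpGs makes likely.

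Ordered by difference instead, an order chosen after the values were seen, the region at Prdm1 was followed by Pvt1, a long noncoding RNA next to Myc. Its region of 5 CpGs in an intron had 2.11% and 2.51% in Div8pos, against 86.3% and 74.4% in Div5. Regions at Gtf2i, Fam49b, Rtkn2, Atg5, Cdc37, Ube2v1 and Dusp22 differed by between -77.6 and -75.7 points. Dusp22 had 2.08% and 2.30% in Div8pos, against 90.5% and 65.3% in Div5, so its Div5 hosts lay well apart. A region of 3 CpGs at Mki67, a marker of cycling cells, had 16.8% and 11.2% in Div8pos, against 84.6% and 82.0% in Div5.

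There were 2 higher regions, and both rested on host 196. On the mitochondrial chromosome 5 covered CpGs had 61.3% in host 196 and 7.40% in host 197 in Div8pos, against 21.7% and 10.7% in Div5. In an exon of Pfn1, an actin-binding protein, 7 covered CpGs had 34.1% and 2.97% in Div8pos, against 0.840% and 0.985% in Div5. In both, host 197 showed a low level in Div8pos. Without the Div8pos library of host 196, and likewise without the Div5 library of host 197, there were 0 higher regions, and without the Div8pos library of host 197 there were 3.

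At gene level, 1745 of 16505 genes (10.6%) were lower in Div8pos than in Div5, by the limma test with at least 10 points, and 0 (0.0%) were higher. Without the size limit 12541 were lower and 6 higher, and 8 were higher at an unadjusted p under 0.05. The lower genes had a median difference of -11.8 points, and all 1745 moved the same way in both hosts, which the size limit makes likely. Of them, 258 had a lower CpG in an annotated promoter and 249 had no single lower CpG at all, so that their mean was lower without any single CpG passing. Among all 16505 genes 1353 had a lower CpG in an annotated promoter and 9060 had any lower CpG.

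The largest gene-level difference was at Apobec1, whose product deaminates cytidines in messenger RNA. Its 5 CpGs (chromosome 6, 122541189 to 122541517) had 22.2% and 20.9% in Div8pos, against 85.8% and 89.8% in Div5, a difference of -66.2 points (SE 1.90, limma adjusted p = 9.90e-07). No library of Div8pos came near those of Div5 there. Ndufb10, part of complex I of the respiratory chain, had 8.73% and 9.73% in Div8pos, against 66.7% and 62.2% in Div5 over 7 CpGs, all of them lower, and Div8neg stood at 29.3%. C1qbp, a mitochondrial matrix protein, had 37.6% and 45.4% in Div8pos, against 91.9% and 92.4% in Div5. Myadm, a membrane protein named for its expression in myeloid cells, had 35.9% and 38.9% in Div8pos, against 76.2% and 79.3% in Div5, and 11 of its 16 CpGs were lower. Man1b1, an endoplasmic reticulum mannosidase that trims misfolded glycoproteins, had 29.0% and 35.0% in Div8pos, against 65.4% and 67.8% in Div5. Calr4, a calreticulin gene, had 45.1% and 47.7% in Div8pos, against 82.8% and 79.6% in Div5. Rab30, a small GTPase of the Golgi, had 46.4% and 47.7% in Div8pos, against 77.4% and 80.1% in Div5. The other 8 of the 15 were Cyp8b1 (a bile acid hydroxylase), Atp2b3 (a pump that exports calcium), 2010109I03Rik, Crybb1, Susd3, Grn (progranulin), Gpnmb and Rasgrp1 (a Ras activator of lymphocytes), with differences between -33.1 and -25.8 points. In all 15 the Div8pos libraries lay below both Div5 libraries, but these genes were picked as lower in both hosts, so this is a description. Most of these genes rest on few CpGs, 5 to 9 in 12 of the 15, so that their mean comes from a small number of CpGs.

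**Figure D4:**
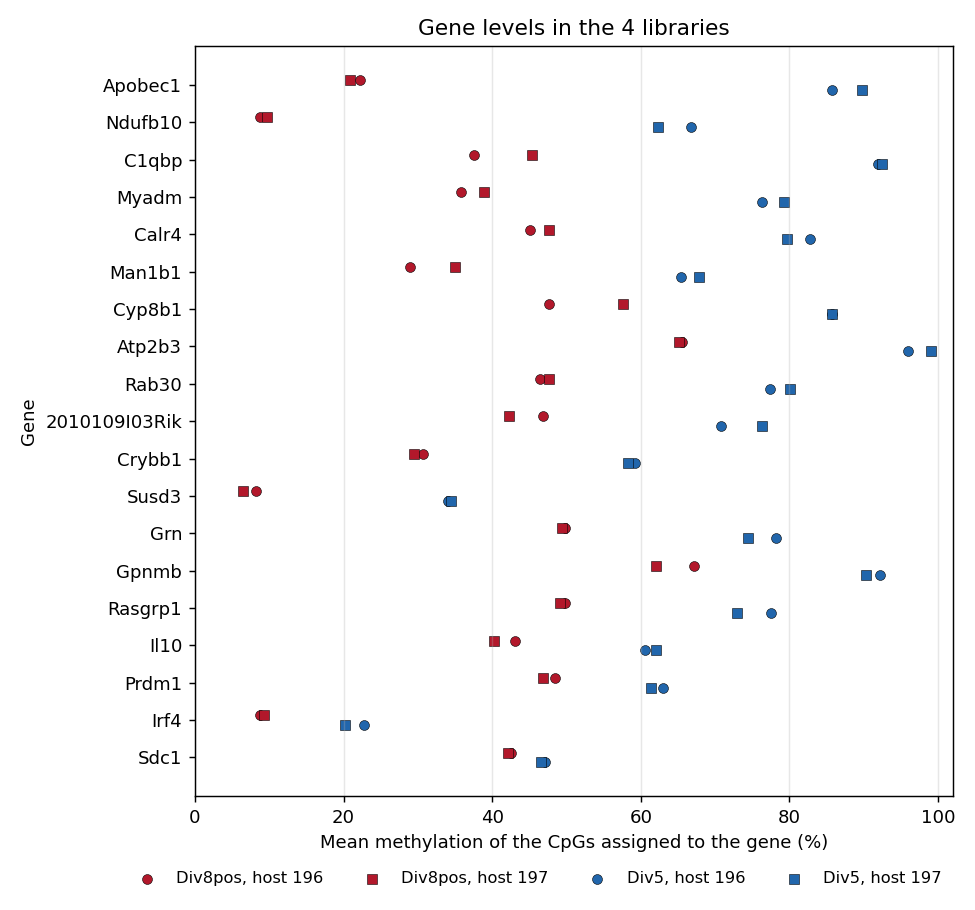
Each row is a gene and each point a library, with the mean methylation (%) of the CpGs assigned to the gene on the x axis, red for Div8pos and blue for Div5, circles for host 196 and squares for host 197. The 15 genes with the largest difference, Sdc1, Prdm1, Irf4 and Il10 are shown from the largest difference at the top to the smallest at the bottom. At Apobec1 the fractions are 66.2 points apart and at Sdc1 4.52.

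The 5 genes with the most lower CpGs had between 116 and 239 covered CpGs. Over the whole set 4.5% of CpGs were lower. Foxp1, a transcription factor of B cell development, had 32 lower CpGs of 239, among them those of 3 regions, and a gene mean of 39.8% and 39.3% in Div8pos, against 47.7% and 47.3% in Div5. Runx3 also had 32, of 178. Rassf3, Cuedc1 and Zfp710 had between 25 and 26 each. At gene level Runx3, Rassf3 and Cuedc1 were lower, but within 5 kb of a start site Rassf3 differed by -0.444 points and Cuedc1 by -5.40, and without Div8pos of host 197 Runx3 differed by -9.50, all inside the limit. A region of 3 CpGs in an intron of Foxp1 had 17.4% and 16.4% in Div8pos, against 46.3% and 49.8% in Div5.

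Genes of the plasma cell list were lower in 8 of 35 measured cases (22.9%) and higher in none, and the median difference of the list was -7.69 points. These 8 were Prdm1, Il10, Irf4, Fkbp11, Ly6a, Cd9, Zbtb20 and Tnfrsf13b. Ly6a, the surface antigen Sca-1, had 82.6% and 84.5% in Div8pos, against 95.8% and 95.2% in Div5. Zbtb20, a transcription factor of plasma cells, had 83.2% and 81.0% in Div8pos, against 92.0% and 92.5% in Div5. Some members with several lower CpGs stayed inside the 10-point limit. Sub1, a transcriptional coactivator, had 7 lower CpGs and a difference of -9.19 points (0.191 within 5 kb of a start site), Txndc5, a protein disulfide isomerase, 7 and -8.45, and Creld2, an endoplasmic reticulum stress protein, 4 and -9.51. Tnfrsf17, the survival receptor BCMA, had 2 lower CpGs and a difference of -9.80 points. Xbp1, the transcription factor of the secretory programme, had no lower CpG, with 26.2% and 25.0% in Div8pos, against 28.0% and 28.6% in Div5.

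For 2 of the 8, Div8neg lay closer to Div8pos than to Div5. Fkbp11, a prolyl isomerase of the endoplasmic reticulum, had 55.1% and 51.4% in Div8pos, against 67.7% and 62.9% in Div5, and Div8neg stood at 53.4%. Its Div8pos minus Div8neg difference was -0.185 points (SE 2.30, limma adjusted p = 0.949). Tnfrsf13b, the receptor TACI, had 72.9% and 67.9% in Div8pos, against 79.7% and 81.1% in Div5, with Div8neg at 71.5% and a Div8pos minus Div8neg difference of -1.15 points (SE 2.37, adjusted p = 0.693). Prdm1 differed from Div8neg by -9.34 points (SE 0.843, adjusted p = 0.000214) and Il10 by -13.6 (SE 1.39, adjusted p = 0.000285). Without single libraries the differences of Fkbp11 (-9.62 without Div5 of host 196), Tnfrsf13b (-7.55), Zbtb20 (-9.07) and Cd9 (-9.74, these 3 without Div8pos of host 197) missed the 10-point limit. From summed reads Cd9 differed by -3.23 points and Zbtb20 by -9.33, and Fkbp11 by -12.6 with an adjusted p of 0.111 by limma, so that these 3 did not pass. Within 5 kb of a start site Prdm1 differed by -7.25 points and was not lower by the rule, and Cd9 by -5.02.

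Genes of B cell identity, most of which are turned down as plasma cells form, were lower in 10 of 29 cases (34.5%), also with none higher, and with a median difference of -7.54 points. Cxcr5, the chemokine receptor that guides B cells to follicles, had 33.9% and 33.0% in Div8pos, against 53.9% and 53.5% in Div5 (-20.2 points, SE 1.24, limma adjusted p = 7.45e-06). A region of 3 CpGs assigned to Cxcr5 on chromosome 9 (44371022 to 44371104, at -36498 bp from the nearest start site) had 10.3% and 12.4% in Div8pos, against 72.0% and 75.6% in Div5. Pou2af1, a coactivator of B cell transcription, had 68.0% and 69.0% in Div8pos, against 84.8% and 89.5% in Div5. Fcrla had 67.2% in both hosts in Div8pos, against 86.8% and 83.3% in Div5. Ms4a1 (CD20) had 70.5% and 66.4% in Div8pos, against 84.7% and 78.3% in Div5, with Div8neg at 82.7%. Fcrl1, Blk, Cd37, Bank1 and Pou2f2 were also lower, with differences between -16.2 and -10.7 points. Within 5 kb of a start site Pou2f2 differed by -0.348 points (adjusted p = 0.852 by limma), and without Div5 of host 196 Ms4a1 differed by -9.86.

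Pax5, Ebf1 and Foxo1, transcription factors that maintain B cell identity, did not reach the limit as genes, but each had a lower region farther than 50 kb from a start site, which the gene means leave out. As a gene, Pax5 had 15.7% and 15.0% in Div8pos, against 17.5% and 17.0% in Div5, Ebf1 16.6% and 15.9%, against 19.7% and 18.7%, and Foxo1 16.0% and 16.6%, against 18.6% and 18.6%. These 3 were under 20% in all 4 libraries, and their differences were -1.90, -2.97 and -2.34 points. The region of Pax5 (4 CpGs in an intron) had 39.5% and 45.3% in Div8pos, against 78.8% and 75.3% in Div5. That of Ebf1 (4 CpGs in an intron) had 52.3% and 63.7% in Div8pos, against 91.4% and 91.0% in Div5. That of Foxo1 (4 CpGs in an intron) had 26.5% and 21.9% in Div8pos, against 73.5% and 64.3% in Div5. Bach2, a repressor of Prdm1, had 9 lower CpGs of 145, against 4.5% of all CpGs, and a gene difference of -5.00 points. A CpG in an exon of Bach2 was higher, with 47.6% and 21.8% in Div8pos, against 12.5% and 10.5% in Div5. Ikzf3 had 11 lower CpGs of 72 and a difference of -8.25 points.

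Both lists had larger shares of lower genes than the 10.6% of all genes, but so did lists of other cell types. The NK cell list had 3 lower of 8 (37.5%), the myeloid list 5 of 18 (27.8%), the erythroid list 2 of 9 (22.2%), the germline list 5 of 27 (18.5%) and the T cell list 3 of 18 (16.7%). None of these had a higher gene. Each of the 3 NK genes missed the 10-point limit without 1 library, Gzmb at -8.77 (without Div8pos of host 196), Prf1 at -9.49 (without Div5 of host 196) and Il2rb at -8.79 (without Div5 of host 197). So did Stag3 of the germline list (-8.99) and Csf1r of the myeloid list (-9.51), both without Div8pos of host 196, Slc4a1 of the erythroid list (-9.68, without Div5 of host 196) and Cd3e of the T cell list (-9.98, without Div5 of host 197). Stag3 differed by -4.47 points and Prf1 by -8.75 within 5 kb of a start site, and from summed reads Cd3e differed by -9.84. In the myeloid list the median level was 72.2% in Div8pos and 84.6% in Div5, and in the germline list 84.2% in Div8pos and 92.9% in Div5. In the NK list it was 64.6% in Div8pos and 73.1% in Div5, in the T cell list 64.7% in Div8pos and 71.5% in Div5, and in the erythroid list 56.6% in Div8pos and 62.6% in Div5. All 5 had a higher level than the plasma cell list, at 42.3% in Div8pos and 47.8% in Div5, and the B cell list, at 39.3% in Div8pos and 46.2% in Div5. The part of the starting level, or of other cells in the sorts, in these shares was not tested. Among the lower members of the germline list were Piwil2, Piwil4, Stag3, Tex13 and Brdt, of the NK list Gzmb, Prf1 and Il2rb, and of the myeloid list Siglec1, Lyz2, Mpo, Csf1r and Csf3r. Values of 3 lower members, chosen after they were seen, were as follows. Cd3e stood at 80.2% and 81.9% in Div8pos, against 91.0% and 93.9% in Div5, Lyz2, a lysozyme of myeloid cells, at 82.2% and 81.8%, against 94.2% and 95.5%, and Cd4 at 75.3% and 77.4%, against 94.2% and 91.3%.

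Genes of Toll-like receptor and NF-kB signalling, the route by which LPS acts, were lower in 6 of 35 cases (17.1%), against 10.6% of all genes. Nfkbie, an inhibitor, had 34.3% and 38.0% in Div8pos, against 58.9% and 55.4% in Div5, and 7 of its 14 CpGs were lower. Nfkbiz had 66.9% and 68.3% in Div8pos, against 84.1% and 82.2% in Div5. Nfkbia, the classical inhibitor, had 50.9% and 49.8% in Div8pos, against 61.8% and 61.3% in Div5. A region of 3 CpGs in an exon of Nfkbia had 7.20% and 4.55% in Div8pos, against 45.1% and 52.4% in Div5. Tlr6, Ly86 and Irak2 were the other lower members. Other inhibitors and modulators of the list did not pass, with differences of -6.17 points at Nfkbib, -7.80 at Nfkbid, -6.43 at Tnfaip3 and -6.26 at Tnip1.

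Of the homing and egress list, 3 of 16 (18.8%, against 10.6% of all genes) were lower, Cxcr5, S1pr1 and Selplg. Selplg differed by -9.79 points, inside the limit, within 5 kb of a start site. S1pr1, the sphingosine receptor that lets lymphocytes leave tissue, had 23.5% and 21.8% in Div8pos, against 39.8% and 37.1% in Div5. Cxcr4, which draws plasma cells to bone marrow, had 3 lower CpGs and a gene difference of -7.87 points, which missed the limit. Of the antigen presentation list 3 of 13 (23.1%, against 10.6% of all genes) were lower. Cd86, a costimulatory ligand, had 66.2% and 64.5% in Div8pos, against 87.4% and 83.8% in Div5, and its region of 3 CpGs in an intron had 9.04% and 7.53% in Div8pos, against 71.5% and 63.0% in Div5, with Div8neg at 27.0%. H2-DMb2 and Tapbp were the others, and Tapbp missed the limit without Div5 of host 196 (-9.55).

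Secretion and unfolded protein response genes were lower in 3 of 38 cases (7.89%), against 10.6% of all genes, and these were Man1b1, Spcs2 and Srp9. Within 5 kb of a start site neither Srp9 (-2.99 points, adjusted p = 0.470 by limma) nor Spcs2 (-12.6 points, adjusted p = 0.0735) passed, and Srp9 missed the limit without Div5 of host 196 (-8.80) and without Div8pos of host 196 (-9.76). The median level of the list was 27.0% in Div8pos and 29.1% in Div5. Spcs2, a subunit of the signal peptidase, had 37.2% and 38.4% in Div8pos, against 55.6% and 57.7% in Div5. B cell receptor signalling genes were lower in 1 of 27 cases (3.70%), Rasgrp3, with 57.7% in both hosts in Div8pos, against 76.7% and 75.6% in Div5. Cell cycle genes were lower in 0 of 34, with a median level of 22.7% in Div8pos and 25.0% in Div5. Imprinted genes were lower in 1 of 28 (3.57%), Airn. It did not pass without Div5 of host 197 (-9.95 points, adjusted p = 0.0683 by limma), without Div8pos of host 196 (-8.44, adjusted p = 0.0933) or within 5 kb of a start site (-1.32).

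Of the DNA methylation machinery list, 3 of 28 (10.7%) were lower, near the 10.6% of all genes, Apobec1 and Zbtb38 among them. Besides genes that write, copy or remove methylation, the list holds binders of methylated DNA and cytidine deaminases. Zbtb38, a protein that binds methylated DNA, had a region of 7 lower CpGs at its promoter and 5′ UTR with 16.0% and 16.8% in Div8pos, against 56.0% and 53.0% in Div5. As a gene Zbtb38 differed by -10.1 points, and by -7.86 from summed reads, -9.93 without Div5 of host 196 and -8.67 without Div8pos of host 197, which missed the limit. Dnmt1 had 63.5% and 63.6% in Div8pos, against 70.0% and 69.2% in Div5. Uhrf1, which brings Dnmt1 to replicated DNA, had 39.9% and 38.1% in Div8pos, against 42.5% and 42.6% in Div5. Tet2 had 31.4% and 31.3% in Div8pos, against 35.7% and 34.8% in Div5.

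**Figure D5:**
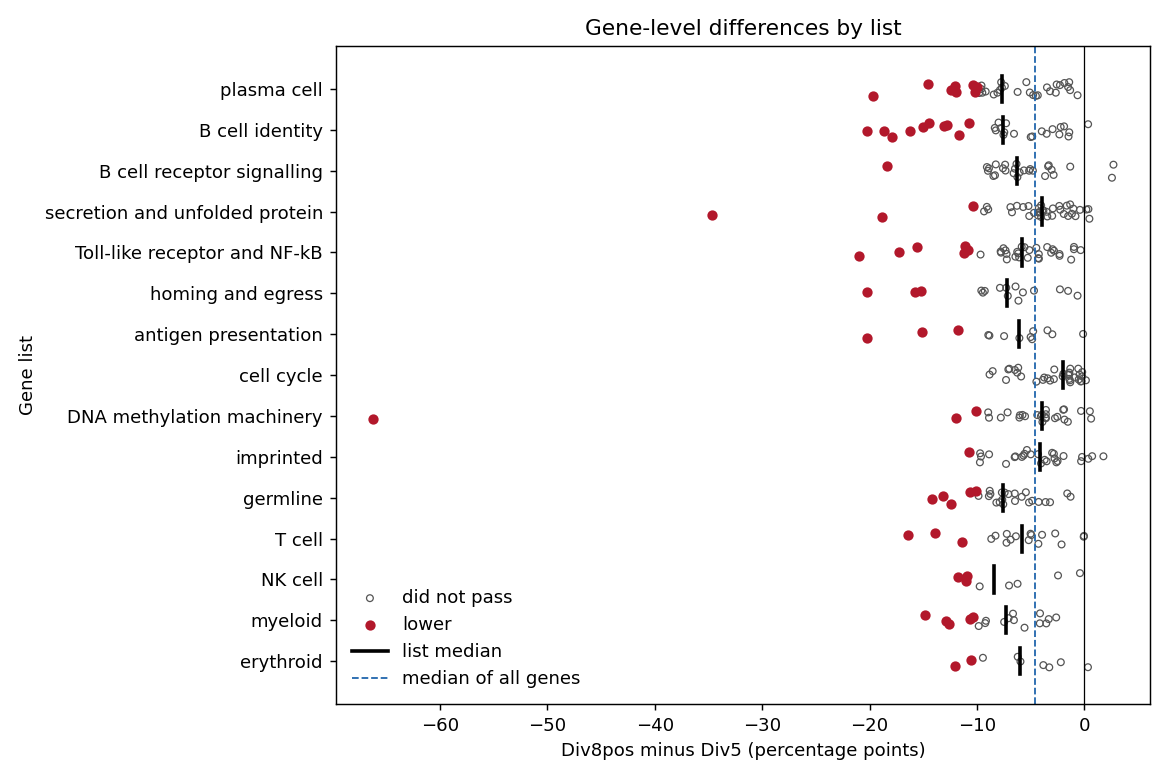
Each point is a gene of 1 of the 15 lists, with its difference Div8pos minus Div5 in percentage points, filled where it was lower by the rule and open where it did not pass. The black bar is the median of the list and the broken line the median of all genes, -4.59 points. The plasma cell and B cell lists lie at -7.69 and -7.54 and the cell cycle list at -2.00. Lists of other cell types lie at -8.39 (NK cell), -7.56 (germline), -7.27 (myeloid), -5.96 (erythroid) and -5.79 (T cell).

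The fraction with at least 8 divisions and no CD138 was set beside both, though it need not match Div8pos in division number. Between Div8neg and Div5, 901 CpGs (0.118%) and 64 genes (0.388%) were lower. Between Div8pos and Div8neg, 4833 CpGs (0.636%) and 345 genes (2.09%) were lower. These comparisons share libraries with Div8pos against Div5, so only the values of each are given. Of the plasma cell list, Irf4, Tnfrsf17 and Il10 were lower in Div8pos than in Div8neg, and Fkbp11 was lower in Div8neg than in Div5. Of the B cell list, Pou2af1, Ms4a1, Fcrla, Blnk and Cxcr5 were among those lower in Div8pos than in Div8neg, and Fcrl1 in Div8neg than in Div5. Apobec1 differed by -51.9 points (SE 1.90) between Div8pos and Div8neg, and Atp2b3 by -29.3 (SE 1.35), with Div8neg at 94.6% and Div5 at 97.5%. At Arhgef11 the Div8pos minus Div8neg difference was -3.46 points (SE 0.928), and the level was 52.1% in Div8neg and 64.1% in Div5. Its Div8pos minus Div5 difference was -4.54 points within 5 kb of a start site.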

How the data were processed

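Per the labels' protocols, DNA was cut with MspI and TaqI, bisulfite treated, amplified by PCR and read as single ends. The submitters' processing notes name mm9, Bismark and Bowtie2. Their versions are not stated here. The deposited table holds methylated and unmethylated read counts per CpG for the 12 libraries, with strands joined, and the methylation of each CpG as a deposited fraction, which equalled methylated reads over all reads. Symbols (nearest transcript), distances (nearest start site, of whichever gene) and classes are the authors'. A distance can therefore belong to a gene other than the symbol.

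A quasi-binomial logistic model was fitted to each CpG over all 12 libraries, with the sorted fraction as the term and the dispersion moderated by squeezeVar of limma 3.58.1 in R 4.3.3, which gave 1.16 for all CpGs. Where the median coverage reached 150 reads (1192 CpGs) the mean dispersion was 2.36, so tests there use too little variation. A CpG was called at a Benjamini-Hochberg adjusted p under 0.05 and at least 20 points. Genes with at least 5 CpGs within 50 kb of a start site were tested with limma on their mean percent methylation, at an adjusted p under 0.05 and 10 points. On simulated reads with the same spread setting at every CpG, the CpG test recovered 61 of 100 drops of 30 points and 96 of 100 of 50 points. It made 5 false calls among 760348 CpGs, which does not give the rate in the real data, where the spread varied. On simulated gene levels the gene test recovered 199 of 200 drops of 15 points with 0 false calls among 16505 genes. The simulated noise had the spread of the fit itself and the unchanged genes had no shift. Near-full recovery was thus built in, and the rate in the real data is not given. Other steps used Python 3.11.15, numpy 2.4.6, scipy 1.17.1 and pandas 2.3.3.

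Per the labels a host number names 1 animal, so the numbers pair the samples. The host deviations of Div8pos and Div5 had a correlation of 0.0044 over CpGs. Coverage differed between the hosts by more than counting noise (chi-square per degree of freedom 3.34 for Div8pos and 1.22 for Div5), and every library was counted on its own. The genes named are Sdc1 and Prdm1, the 15 lower genes with the largest differences, the 5 with the most lower CpGs, the 8 lower regions with the most CpGs, list members that passed (the 4 with the largest differences in each list) and members of the plasma cell and B cell lists with at least 3 called CpGs. Others are said to be chosen after their values were seen, or are given as members of a list. The comparison, the 15 gene lists and the rules were chosen with earlier results of these data known. Some members of these lists are not reported here.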

Additional observations from a re-analysis of the deposited data

How the results depend on the processing

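The mean difference of -5.32 points was -6.14 from summed reads and -4.59 at CpGs with at least 20 reads, and lay between -5.62 and -5.02 without single libraries. The replicate block (host as a term) gave 32836 lower and 51 higher CpGs, 1744 lower genes, 1097 lower regions and a mean difference of -5.32 points, and of the counts it moved only the 2 higher regions, to 1, by over 1.5 times. Lower CpGs (34215) numbered 75988 with a limit of 10 points, 16856 at 20 reads (442535 CpGs tested), 0 with each CpG's own dispersion, and between 6618 and 35402 without single libraries. Higher CpGs (66) numbered 278, 18 and 0 in those same 3 settings and between 8 and 105 without single libraries. Lower regions (1132) numbered 188 with at least 5 CpGs, 613 with neighbours at most 100 bp apart, and 310 to 1112 without single libraries. The 2 higher regions became 0 with at least 5 CpGs, 1 within 100 bp, and 0 to 3 without single libraries. Lower genes (1745) numbered 12541 with no size limit, 1060 with at least 10 CpGs, 743 from CpGs within 5 kb of start sites, and 1648 to 1972 without single libraries. The 0 higher genes became 6 with no size limit and 0 to 3 without single libraries. The intron over exon ratio of 2.23 was 1.64 with a limit of 10 points and 1.87 to 2.32 without single libraries. Within 5 kb of a start site, where fewer CpGs enter, Sub1 was at 0.191 and Ralgps2 at 0.0619 points, and Prdm1 lost its call at -7.25. At this depth 61 of 100 simulated drops of 30 points were recovered, so many smaller changes of single CpGs were not detectable. The cause of the other shifts was not tested.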
